A study of Mus musculus with 23 samples.

Results

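Luminal progenitor cells and mammary epithelial stem cells of pregnant mice were compared on 5 of the 23 arrays of a series on the mouse mammary epithelium. The 5 arrays are those whose labels give pregnancy day 10 or 16 together with 1 of these 2 cell types, 2 of luminal progenitors and 3 of stem cells. The luminal progenitor group holds 1 array titled day 10 and 1 array titled day 16. The stem cell group holds 2 arrays of day 10, numbered replicate 1 and replicate 2, and 1 array of day 16. All mice were female C57BL/6 animals, and no genotype or treatment other than the reproductive stage is named. For the virgin comparison, 2 arrays of each cell type from 9-week virgins were used. Arrays of 3-week virgins, of retired breeders and of mature luminal cells also entered the fit and give levels for reference. Messenger RNA of each purified fraction was copied into biotin-labelled cRNA for Affymetrix arrays, which measure each transcript through short probes. The surface markers and gates of the purification, the age of the pregnant mice, and whether arrays of 1 group came from separate animals are not described. The p-values therefore measure the spread between arrays of the same group, taken over all 23 arrays of the series, which may be technical. In the pooled groups of pregnancy this spread also holds any difference between days 10 and 16.

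The mammary epithelium has an inner luminal layer and an outer basal layer. Basal cells express keratins 5 and 14 and the transcription factor p63, contract to eject milk, and rest on a basement membrane of laminins, collagen IV and perlecan; transplantable stem cell activity is usually found in a fraction of basal character. Luminal progenitors are usually recognised by Kit, Elf5 and, in many sorting schemes, integrin beta 3, and give rise to the secretory alveoli that form in pregnancy under prolactin, through JAK2 and STAT5.

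All values are deposited log2 levels, on which a difference of 1 unit is a factor of 2, and all differences are luminal progenitor minus stem. The 5 arrays did not group by cell type alone. Over all probe sets, the luminal progenitor array titled day 10 was most like the array titled day 16 (Pearson r = 0.944), which in turn was most like the stem array of day 10 replicate 2 (r = 0.951). The stem array of day 10 replicate 1 stood apart, with r between 0.839 and 0.883 to the other 4, and results are therefore also given without it. The difference between the 3′ and 5′ probe sets of Gapdh, a measure of RNA quality, was 2.22 and 2.34 on the luminal progenitor arrays and 1.28 to 1.43 on the stem arrays, so it moved with the cell type; its part in the differences below was not tested.

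The order of the 2 luminal progenitor arrays in pregnancy is doubtful. Wap, a whey protein gene switched on in mid-pregnancy, stood at 12.74 on the luminal progenitor array titled day 10 and at 6.94 on the one titled day 16. On stem arrays its level was 6.59 and 5.17 at day 10 and 12.19 at day 16, and on mature luminal arrays it was 7.24 and 7.32 at day 10, 13.14 at day 16 and 13.57 at day 19. The luminal progenitor arrays thus ran in the opposite order to both other fractions. Csn1s2b, a casein gene, had the same order, with 10.18 on the array titled day 10 and 7.88 on that titled day 16, against 2.99 and 4.55 and then 7.35 on stem arrays. Days were therefore pooled, and the 2 arrays are named by their titles only.

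**Figure D1:**
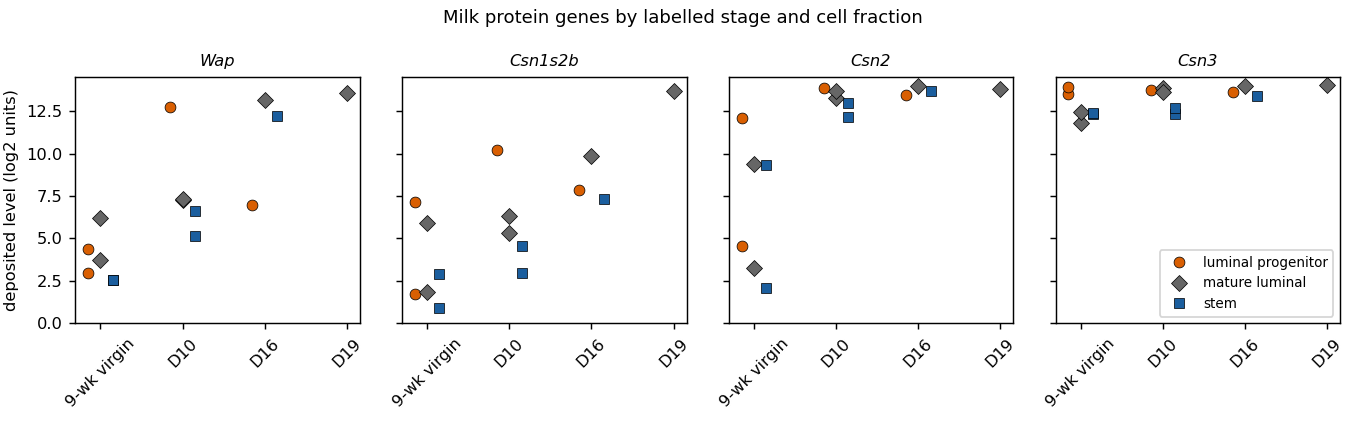
Deposited log2 levels (vertical axis) of 4 milk protein genes by labelled stage (horizontal axis), with 1 point per array and colour and shape for the cell fraction. For Wap and Csn1s2b the luminal progenitor point titled day 10 lies above the point titled day 16, while the stem and mature luminal points lie lower at day 10 than at day 16.

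The stem fraction carried the basal markers of its label, but luminal genes were high on it too. Krt5 stood at 12.39, 11.93 and 12.23 on the 3 stem arrays (day 10 replicate 1, day 10 replicate 2 and day 16, the order used throughout), and Krt14 at 13.39, 13.38 and 13.37. The stem cell genes Lgr5 and Procr, both on the basal list, did not separate the fractions. Lgr5 was 3.23 and 7.15 on the luminal progenitor arrays (titled day 10, then titled day 16, the order used throughout) against 5.56, 7.69 and 6.34 on stem arrays, and Procr was 9.45 and 11.13 against 10.15, 9.99 and 8.27. The mean of 22 luminal keratins and junction genes was 10.48, 10.38 and 10.30 on stem arrays, against 10.96 and 10.95 on luminal progenitor arrays.

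The luminal progenitor label was met only in part. Kit and Elf5 were higher than on every stem array, but the mean level of 25 basal and myoepithelial markers was 8.85 and 10.09 on the 2 arrays, above the 7.53 to 8.08 of the 4 luminal progenitor arrays from virgins and below the 10.92 to 11.19 of the pregnant stem arrays. The same arrays carried markers of other cell types. The mean of the 24 fibroblast markers tested was 9.82 and 9.87, against 6.66, 8.02 and 7.89 on stem arrays and 3.83 to 5.92 on the 3 mature luminal arrays of days 10 and 16. The mean of the 22 leukocyte and macrophage markers tested was 8.11 and 7.66, against 4.64, 6.87 and 6.29 on stem arrays. On the luminal progenitor array of retired breeders the means were 8.81 for basal, 9.38 for fibroblast and 6.35 for leukocyte markers. Luminal progenitor arrays of virgins had fibroblast means of 5.89 to 8.28. In such bulk samples, fewer cells of a type and less RNA per cell cannot be told apart, and the part of these cell types in any result was not tested.

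**Figure D2:**
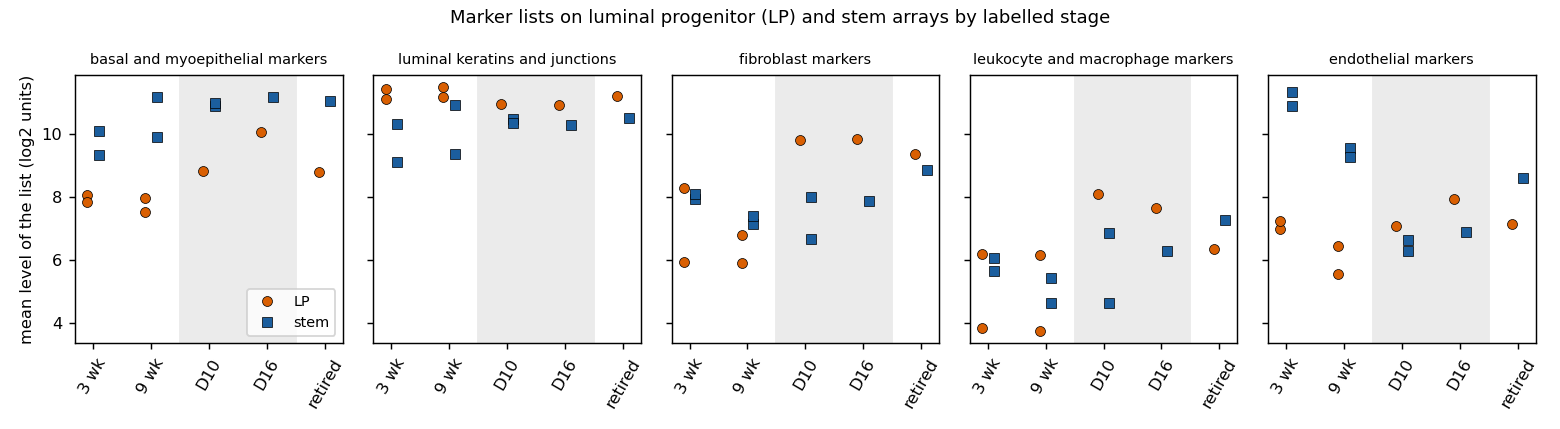
Mean log2 level (vertical axis) of 5 marker lists on each luminal progenitor and stem array by labelled stage (horizontal axis), with pregnancy shaded and 1 point per array. On the pregnant luminal progenitor arrays the fibroblast means are 9.82 and 9.87 and the basal means 8.85 and 10.09.

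In the limma fit over all 23 arrays, 0 of 15378 genes passed a Benjamini-Hochberg adjusted p of 0.05, the smallest adjusted p being 0.0547, shared by 15 genes. At an unadjusted p under 0.05 there were 2409 genes, 8.03% of all genes tested higher in luminal progenitors and 7.63% lower. Array titles carry replicate numbers, and arrays with the same number deviated together in every pair of groups. With the number as a block of 2 levels, in which arrays without a number stand with replicate 2, 347 genes were higher (2.26% of all genes tested) and 432 lower (2.81%). With 3 levels, in which arrays without a number form their own level, 57 were higher (0.371%) and 61 lower (0.397%), and 96 genes passed with both blocks. These counts rest on few arrays: with the block of 2 levels, 0 genes passed without the luminal progenitor array titled day 10, 66 without the stem array of day 16, 424 and 472 without the stem arrays of day 10 replicate 2 and replicate 1, and 477 without the luminal progenitor array titled day 16. In the block of 3 levels, the stem array of day 16 is the only stem array of pregnancy on the level of the luminal progenitor arrays. The difference is then the luminal progenitor mean minus that 1 array, and the stem arrays of day 10 enter only the spread. A pass with 3 levels therefore rests on 1 stem array. Below, "with the block" means the block of 2 levels, and all adjusted p-values come from limma with Benjamini-Hochberg adjustment over all genes tested.

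Because the spread left so few calls, the lists are also described by whether the arrays overlap. Both luminal progenitor arrays lay above all 3 stem arrays for 20.3% of all genes tested and below them for 17.8%. Without the stem array of day 10 replicate 1, these shares were 29.7% and 25.8%. List counts given without that array are to be set beside the latter shares. The median difference over all genes was 0.04.

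**Figure D3:**
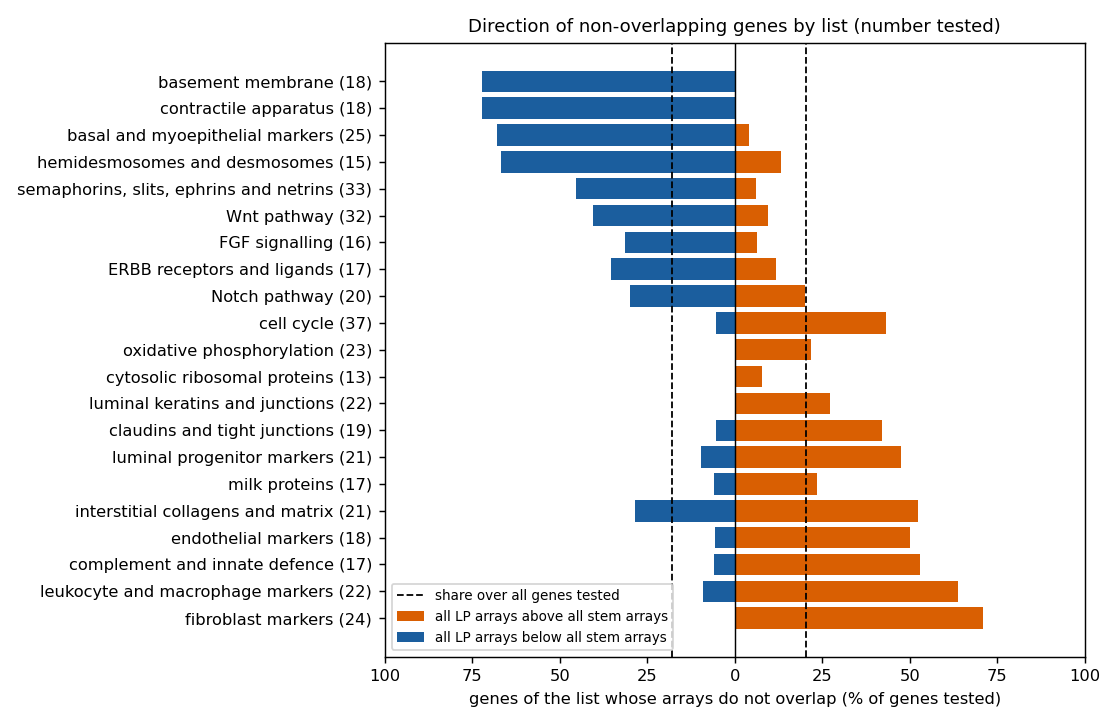
Share of each list's tested genes (horizontal axis, percent) for which both luminal progenitor arrays lie above (right) or below (left) all 3 stem arrays, with the number tested in brackets. Dashed lines mark the shares over all genes, 20.3% above and 17.8% below.

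Most basal and contractile genes lay lower on luminal progenitor arrays than on any stem array. Of 25 basal and myoepithelial markers, 17 lay below all stem arrays and 1, Tspan8, above them, with a median difference of -1.65. Without the stem array of day 10 replicate 1, 21 lay below (25.8% of all genes), with a median of -1.80. In the plain fit 0 passed, and with the block 3 were lower, Myh11, Col17a1 and Jag2. Krt5, a basal keratin, stood at 8.38 and 10.53 against 12.39, 11.93 and 12.23, a difference of -2.73 ± 1.12 (SE, n = 2 and 3). Its groups did not overlap, but it did not pass (adjusted p = 0.262, and 0.138 with the block). Trp63, which encodes p63, stood at 9.27 and 10.51 against 12.06, 11.30 and 11.77 and differed by -1.82 ± 1.01 (adjusted p = 0.400). Krt14 was 11.42 and 12.67 against at least 13.37 on every stem array, near the top of the scale, and differed by -1.33 ± 0.61. On all 3 genes the array titled day 10 was the lower of the 2 luminal progenitor arrays.

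The largest difference on this list was that of Col17a1, the collagen of hemidesmosomes. It stood at 6.03 and 7.73 against 10.90, 10.42 and 11.32, and the difference of -4.0 ± 1.14 passed with the block (adjusted p = 0.0369, and 0.132 without). Krt15, a keratin of basal cells, was 6.45 and 8.42 against 10.90, 10.87 and 11.21 and differed by -3.56 ± 0.74 (adjusted p = 0.0729, 0.0152 with 2 block levels and 0.0453 with 3). Krt32, a keratin known from hair, was 3.57 and 4.36 against 7.35, 7.0 and 8.19 and passed with both blocks (adjusted p = 0.0148 and 0.0404). Its luminal progenitor values lie below the array medians (4.94 and 5.02).

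The integrins used to sort mammary cells differed less. Itga6 (CD49f) was 11.58 and 12.09 against 11.95, 12.73 and 12.79, with overlapping groups, and Itgb1 (CD29) was 8.47 and 9.15 against 10.62, 10.07 and 10.55. Itgb1 differed by -1.60 ± 0.86 and did not pass (adjusted p = 0.382, and 0.167 with the block); its other 4 probe sets differed by -1.98 to 0.22.

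All 13 genes of the contractile apparatus whose arrays did not overlap, of 18 tested, were lower in luminal progenitors, with a list median of -1.44. With the block 4 were lower (Myh11, Lmod1, Smtn and Flna), and none was higher. Smtn, which encodes smoothelin, a protein of contractile smooth muscle, was 6.40 and 7.67 against 10.40, 10.29 and 11.05. Its difference of -3.54 ± 0.60 had an adjusted p of 0.0547, with 0.0116 and 0.0325 under the 2 blocks and a range of 0.0116 to 0.793 over the 16 alternative settings. Myh11, the smooth muscle myosin heavy chain, was 8.46 and 9.49 against 10.88, 11.57 and 12.77 and differed by -2.77 ± 1.08. Acta2, smooth muscle actin, was high on all 5 arrays, with 12.81 and 13.17 against 13.53, 13.62 and 13.71, a difference of -0.63 ± 0.56 that did not pass. Tgfb1i1 (Hic-5), a focal adhesion protein, differed by -3.16 ± 0.58 and passed with both blocks (adjusted p = 0.0136 and 0.0325).

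The promoter of Myl9, the smooth muscle myosin light chain, is shown because it was the only promoter of this list, apart from that of Srf itself, with a CArG box, the site known for serum response factor. Myl9 was chosen after its values were seen and stood at 9.22 and 10.16 against 10.54, 11.98 and 12.78, without overlap and without passing (-2.08 ± 1.01, adjusted p = 0.338). The box is in capitals in the 250 bases before the start, 5′ to 3′, from RefSeq on GRCm38.p6, chr2:156775214-156775463, plus strand.
Myl9: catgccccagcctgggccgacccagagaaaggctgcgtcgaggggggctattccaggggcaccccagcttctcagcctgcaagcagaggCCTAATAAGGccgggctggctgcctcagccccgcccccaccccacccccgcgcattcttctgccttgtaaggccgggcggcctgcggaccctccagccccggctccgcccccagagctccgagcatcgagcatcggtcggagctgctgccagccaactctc
A CArG box, searched on both strands, was present in this window in 2 of 14 contractile genes with a promoter sequence and in 1.47% of all 32851 promoters. These promoters belong to 27025 genes, so a count of genes and a share of promoters are unlike measures. A match describes the letters only.

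Basement membrane genes showed the same direction. Of 18 tested, 13 lay below all stem arrays and 0 above (15 below without the stem array of day 10 replicate 1), with a median difference of -1.60. With the block 8 were lower, namely Lama1, Lama3, Lamb1, Lamb2, Lamb3, Hspg2, Agrn and Col18a1. Lamb2, a laminin beta chain, was 6.94 and 7.56 against 9.71, 9.67 and 10.27 and differed by -2.63 ± 0.50 (adjusted p = 0.0596, 0.0148 and 0.0462 with the 2 blocks). Lamb3, the beta chain of the laminin that binds hemidesmosomes, was 7.84 and 8.44 against 10.62, 11.10 and 11.58. Hspg2, which encodes perlecan, was 8.50 and 8.54 against 12.01, 10.15 and 10.88, and Col18a1 was 7.78 and 9.76 against 12.30, 12.17 and 12.24. For these 4 genes no luminal progenitor array came within 1 unit of a stem array.

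Genes of hemidesmosomes and desmosomes, the junctions that tie keratin filaments to the membrane, were also mostly lower, 10 of 15 without overlap and a median of -1.06, while Pkp2 and Dsg2 lay above all stem arrays. With the block 5 were lower (Col17a1, Dst, Plec, Dsp and Pkp3). Plec, which encodes the linker plectin, was 8.08 and 8.58 against 12.58, 10.43 and 10.82. Dst, which encodes dystonin, was 12.12, 11.79 and 12.13 on stem arrays and lay below all 3 on both luminal progenitor arrays, a difference of -1.43 ± 0.36.

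Most but not all receptors for fibroblast growth factors were lower in luminal progenitors with the block. Of 16 genes of this pathway, with a median of -0.90, 5 lay below all stem arrays and 1 above (8 and 3 without the stem array of day 10 replicate 1), and 5 were lower with the block (Fgfr1, Fgfr2, Fgfr4, Fgfrl1 and the target Etv5) and 1, the ligand Fgf7, was higher. Fgfr1 was 9.08 and 10.25 against 11.67, 11.93 and 11.99, a difference of -2.20 ± 0.36 (adjusted p = 0.0547, 0.0116 and 0.0416 with the 2 blocks, and 0.00817 to 0.793 over the alternatives). Fgfr2 was 7.19 and 9.88 against 10.73, 11.15 and 11.32. Its difference of -2.53 was -1.19 without the luminal progenitor array titled day 10 and -3.88 without the one titled day 16. Fgfr3, another receptor of the family, was 6.17 and 7.54 against 6.18, 8.19 and 6.14, with overlapping groups. Fgf7, a ligand usually made by stroma, was 5.69 and 5.75 against 3.31, 3.29 and 4.38. Its stem values lie below the array medians (4.79, 4.90 and 4.98).

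In the Notch pathway 2 of 20 genes, Jag2 and Dlk2, were lower with the block and 0 higher. The list had a median of -0.17 (0.12 without the stem array of day 10 replicate 1). It held 6 genes below and 4 above all stem arrays (17.8% and 20.3% of all genes). Jag2, a ligand, was 5.97 and 6.62 against 9.43, 8.94 and 9.95 and differed by -3.15 ± 0.63 (adjusted p = 0.0689, 0.0165 and 0.0410 with the 2 blocks). Dlk2, a membrane protein related to the Delta ligands, was 4.58 and 5.09 against 7.35, 7.56 and 8.73 and passed with both blocks. Dll1, a ligand found on basal cells, was 8.57 and 9.67 against 10.95, 10.59 and 11.50 and did not pass (-1.89 ± 0.69, adjusted p = 0.213). The ligands Jag1, with 9.05 and 11.93 against 12.23, 12.76 and 11.68, and Dll4, with 4.53 and 4.20 against 5.48, 4.46 and 4.13, overlapped.

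In the Wnt pathway 13 of 32 genes lay below all stem arrays and 3 above, with a median of -0.90. Rnf43, a membrane ligase that removes Wnt receptors, was 7.58 and 7.36 against 9.58, 8.84 and 9.12 and was lower with the block (adjusted p = 0.0302). Wnt10a was listed at 1.06 and 7.0 against 7.09, 9.54 and 7.84, so its difference of -4.13 ± 1.59 came mostly from the array titled day 10 and was -1.16 without it. Lef1, a transcription factor of the pathway that is also expressed by fibroblasts and T cells, ran the other way, with 8.57 and 7.88 against 3.83, 4.95 and 5.05 (3.62 ± 0.84, adjusted p = 0.0884, and 0.0236 with the block).

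Other growth factor systems moved member by member. Of 17 ERBB receptors and ligands, 2 lay above all stem arrays and 6 below (20.3% and 17.8% of all genes), with a median of -0.58. With the block 2 were higher and 1 lower. Btc, the ligand betacellulin, was higher (7.76 and 8.12 against 5.79, 6.37 and 5.28), as was the receptor Erbb3, whose groups overlapped (10.26 and 10.80 against 10.57, 9.38 and 8.84). Nrg2, a neuregulin ligand, was lower, with 6.16 and 6.26 against 7.77, 8.34 and 10.35 (adjusted p = 0.0494 with the block). Nrg1, the ligand neuregulin, was 4.22 and 7.27 against 9.05, 8.13 and 8.73 and did not pass (adjusted p = 0.129, and 0.0519 with the block). Of 15 genes of the insulin-like growth factor axis, 11 had a difference below 0, with a median of -0.53. In this list 3 lay above all stem arrays and 5 below (20.3% and 17.8% of all genes), and with the block 2 were higher and 2 lower. Irs2, an adaptor of the receptor, was lower with the block, with 6.42 and 6.16 against 7.94, 8.33 and 9.85. Igf1, a growth factor mostly made by stroma, was higher with the block, with 6.74 and 7.26 against 4.40, 4.85 and 5.39. Grb10, an inhibitor of the receptor, was higher, with 10.32 and 10.60 against 8.99, 8.64 and 8.37 (1.79 ± 0.41, adjusted p = 0.0884, 0.00919 and 0.0325 with the 2 blocks), although 1 of its 2 other probe sets differed by -0.11.

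Secreted factors differed in both directions. Of 21 PDGF, VEGF, HGF and CSF factors, 4 lay above all stem arrays and 6 below (20.3% and 17.8% of all genes), with a median of -0.84. Without the stem array of day 10 replicate 1, 12 lay below (25.8% of all genes). With the block Pdgfd was higher and Vegfc, Csf1, Kitl and Mdk were lower. Mdk, the heparin-binding factor midkine, was 7.79 and 9.23 against 10.22, 10.79 and 11.22, and Csf1, the macrophage growth factor, was 8.47 and 9.54 against 9.93, 11.40 and 10.54. Of 21 chemokines and receptors, 9 lay above and 4 below, with a median of 0.94 (0.54 without that stem array), and with the block Ccl20, Cxcl1, Cxcl2 and Cxcl13 were higher and Cx3cl1 lower. Of 33 semaphorins, slits, ephrins, netrins and their receptors, 15 lay below all stem arrays and 2 above (19 and 5 without it), with a median of -0.84, and with the block Unc5b, Epha2, Ephb3 and Ephb6 were lower and Epha3 higher. Epha2, an ephrin receptor, was 6.72 and 7.54 against 9.09, 8.72 and 8.99, a difference of -1.80 ± 0.41.

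Luminal progenitor markers divided. Of 21, 10 lay above all stem arrays and 2 below (13 and 5 without the stem array of day 10 replicate 1), with a median of 0.87, and 0 passed in the plain fit. With the block 4 were higher, Cyp24a1, Cxcl1, Bcl11a and Ehf. Kit, the receptor tyrosine kinase that marks progenitors, was 8.95 and 9.51 against 6.97, 7.79 and 7.22. Its difference of 1.90 ± 0.56 did not pass (adjusted p = 0.146, and 0.0607 with the block). Elf5, the alveolar transcription factor, was 12.56 and 11.80 against 9.34, 10.34 and 11.53, so the lower luminal progenitor array and the highest stem array were close (1.78 ± 0.88, adjusted p = 0.345). Ehf, an epithelial ETS factor, was 11.33 and 11.48 against 9.78, 9.63 and 9.78 and passed with the block (1.67 ± 0.55, adjusted p = 0.0189, and 0.180 without). Bcl11a, a transcription factor of luminal progenitors, was 8.95 and 8.44 against 5.47, 6.94 and 6.75 and passed with the block (adjusted p = 0.0382), with 4 other probe sets at -0.29 to 3.65.

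Other common progenitor markers did not follow. Aldh1a3, the aldehyde dehydrogenase behind the ALDH assay, was 9.75 and 11.02 against 10.32, 9.33 and 7.61, with overlapping groups. Itgb3, integrin beta 3, was 6.01 and 7.07 against 7.47, 8.22 and 9.06 and did not pass (-1.71 ± 0.68, adjusted p = 0.246).

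Luminal keratins were high on all 5 arrays. Of 22 luminal keratins and junction genes, 20 had a difference above 0, with a median of 0.38. In all, 6 lay above all stem arrays and 0 below. Without the stem array of day 10 replicate 1, 14 lay above and 2 below (29.7% and 25.8% of all genes). With the block 3 were higher, Cldn1, Ehf and Mal2. Krt8 was 13.36 and 13.33 against 13.39, 13.25 and 13.36, a difference of 0.01 ± 0.23 whose sign turned with the block of 3 levels. Krt18 was 12.86 and 13.14 against 13.21, 12.60 and 12.44, and Krt19 was 11.96 and 12.12 against 12.03, 11.53 and 11.58. Epcam was 12.40 and 12.78 against 12.67, 12.20 and 11.81. Groups overlapped for all 4 genes, but for Krt18, Krt19 and Epcam only through the stem array of day 10 replicate 1, without which both luminal progenitor arrays lay above the stem arrays. Values near 13 lie close to the highest value of the table, 14.28.

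**Figure D4:**
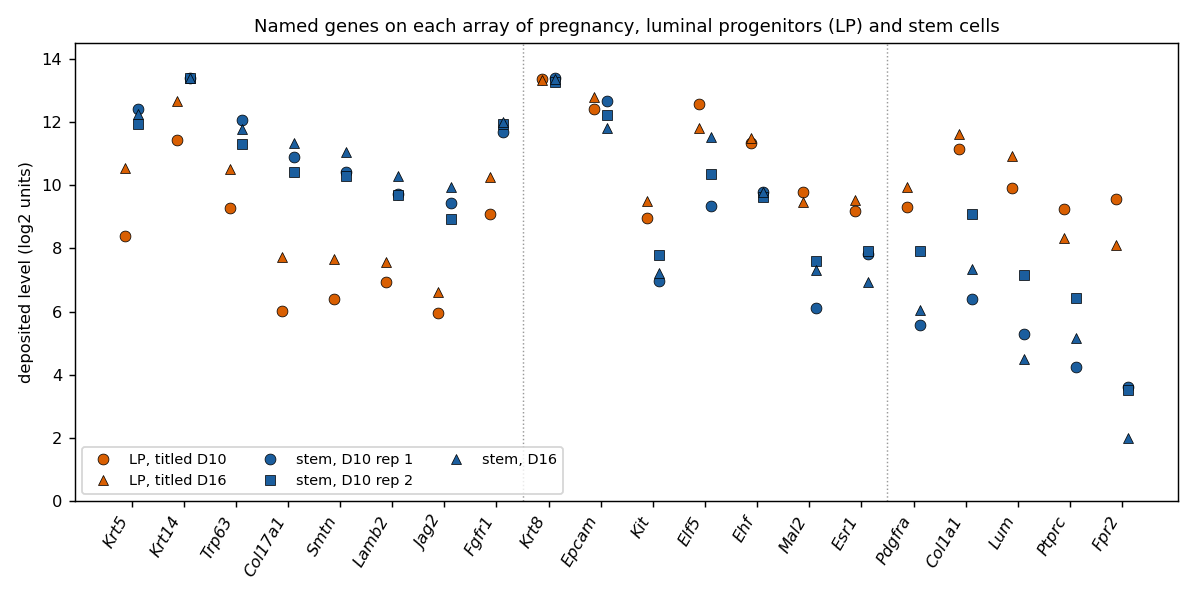
Deposited log2 level (vertical axis) of 20 genes on each of the 5 arrays, with basal and signalling genes left, epithelial and luminal genes in the middle and stromal and leukocyte genes right. Orange points are luminal progenitors and blue points stem cells; the groups overlap for Krt8 and Epcam and for none of the other genes drawn.

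Tight junction genes lay mostly higher. Of 19 genes, 8 lay above all stem arrays and 1, F11r, below, with a median of 0.70 (13 and 2 without the stem array of day 10 replicate 1, with a median of 1.18), and with the block Cldn1, Cldn8, Cldn11 and Cgn were higher. Cldn8 was 11.11 and 10.36 against 6.16, 8.17 and 9.17, and Cldn1 was 9.84 and 10.54 against 6.84, 9.04 and 7.77. Mal2, a protein of apical transport in polarised epithelium, was 9.77 and 9.46 against 6.12, 7.61 and 7.31, a difference of 2.60 ± 0.54 (adjusted p = 0.0729, and 0.0165 with the block).

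Of the hormone receptors, Esr1 was higher with the block. Esr1, the oestrogen receptor, was 9.18 and 9.54 against 7.83, 7.92 and 6.93 and passed with the block of 2 levels only (1.80 ± 0.49, adjusted p = 0.118, 0.0449 and 0.0532 with 3 levels). Pgr, the progesterone receptor, was 6.42 and 8.94 against 4.64, 8.25 and 9.35, with overlapping groups, and the sign of its difference turned under several settings. Foxa1, the pioneer factor of oestrogen receptor positive cells, was 8.22 and 9.21 against 8.17, 7.89 and 6.42 and did not pass. Prlr, the prolactin receptor, was not among the genes tested.

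Milk protein genes were expressed in both fractions and had no call between them. Of 17 tested, 16 had a difference above 0, with a median of 1.41 (1.04 without the stem array of day 10 replicate 1). Their mean level was 11.99 and 10.26 on luminal progenitor arrays against 8.50, 9.12 and 10.95 on stem arrays. The stem array of day 16 thus lay between the luminal progenitor arrays. Day 10 gave 2 of the 3 stem arrays but 1 of the 2 luminal progenitor arrays by title, and the part of the day in these differences was not tested. In all, 4 lay above all stem arrays (Csn3, Folr1, Csn1s2b and Muc15) and Mfge8 lay below, beside 20.3% and 17.8% of all genes. With either block or without one, 0 passed. The upstream windows of Csn1s1, Csn2 and Glycam1 are shown because these were the milk protein genes whose promoter held the palindrome TTCNNNGAA, the site known for STAT5; Csn1s1 and Glycam1 were chosen for that match. The 250 bases before the start are given 5′ to 3′ with the palindrome in capitals, from RefSeq on GRCm38.p6, for Csn1s1 at chr5:87665958-87666207, plus strand, for Csn2 at chr5:87699426-87699675, minus strand, and for Glycam1 at chr15:103565082-103565331, minus strand.
Csn1s1: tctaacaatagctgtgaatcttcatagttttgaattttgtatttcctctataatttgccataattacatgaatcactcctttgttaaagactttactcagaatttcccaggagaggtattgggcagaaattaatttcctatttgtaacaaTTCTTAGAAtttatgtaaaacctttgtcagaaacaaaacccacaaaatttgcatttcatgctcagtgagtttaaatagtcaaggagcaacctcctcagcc
Csn2: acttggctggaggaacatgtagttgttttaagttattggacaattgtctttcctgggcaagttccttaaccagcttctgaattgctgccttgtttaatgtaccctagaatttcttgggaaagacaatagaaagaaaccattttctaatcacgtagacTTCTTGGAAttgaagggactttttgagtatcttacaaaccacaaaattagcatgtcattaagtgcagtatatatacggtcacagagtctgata
Glycam1: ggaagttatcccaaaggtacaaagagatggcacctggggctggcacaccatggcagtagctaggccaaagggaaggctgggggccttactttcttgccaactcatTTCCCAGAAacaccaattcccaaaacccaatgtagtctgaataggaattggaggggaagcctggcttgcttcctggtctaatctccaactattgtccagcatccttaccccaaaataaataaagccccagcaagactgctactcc
Only the fixed bases of the palindrome read the same on both strands. The palindrome lay 92 to 100 bases before the start of Csn1s1 and 85 to 93 before that of Csn2. For Glycam1 it lay 137 to 145 bases before the start. It was present in 3 of 12 milk protein genes with a sequence and in 7.02% of all promoters, and the match is a description. The first count is of genes and the share is of promoters, of which a gene can have several, so the measures are unlike.

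The genes behind these promoters were high on all 5 arrays. Csn2, beta casein, was 13.85 and 13.46 against 12.17, 12.95 and 13.69, and Csn1s1, alpha casein, was 14.11 and 13.28 against 11.59, 11.94 and 13.72. Glycam1 was 13.99 and 12.73 against 12.83, 11.32 and 13.79. In each case the stem array of day 16 lay within the luminal progenitor values or above the array titled day 16, and none passed (differences of 0.72 ± 2.17, 1.28 ± 1.09 and 0.71 ± 0.79). Csn3, kappa casein, did not overlap, with 13.73 and 13.61 against 12.35, 12.68 and 13.36 (0.87 ± 0.29, adjusted p = 0.187). Of 21 milk lipid genes, 6 lay above and 2 below all stem arrays (20.3% and 17.8% of all genes). Me1, malic enzyme, was 10.74 and 10.28 against 9.17, 9.62 and 9.73 without passing (adjusted p = 0.251).

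Fibroblast markers lay mostly higher in the luminal progenitor fraction. Of 24 fibroblast markers, 17 lay above all stem arrays and 0 below (18 without the stem array of day 10 replicate 1, against 29.7% of all genes), with a median difference of 2.24, or 1.65 without that array. With the block 7 were higher, Pdgfra, Lum, Col1a1, Dpt, Pi16, Dpp4 and Fap. Col1a1, a chain of collagen I, was 11.14 and 11.61 against 6.41, 9.10 and 7.36 and differed by 3.75 ± 0.86 (adjusted p = 0.0884, 0.0263 and 0.103 with the 2 blocks). Pdgfra, the receptor that marks fibroblasts, was 9.30 and 9.93 against 5.59, 7.91 and 6.05 (3.10 ± 0.80) and passed with both blocks (adjusted p = 0.0227 and 0.0416). Lum, the matrix proteoglycan lumican, was 9.92 and 10.91 against 5.28, 7.16 and 4.50. Dcn, decorin, was high throughout, with 11.61 and 11.99 against 9.61, 10.99 and 12.06, and overlapped.

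Genes of the interstitial matrix differed in both directions. Of 21 interstitial matrix genes, 11 lay above and 6 below all stem arrays, and with the block Col1a1, Col6a3, Fn1, Mfap5 and Lox were higher and Col12a1, Col14a1 and Fbln2 lower. Fn1, fibronectin, was 9.36 and 9.99 against 7.41, 7.33 and 5.17 (3.04 ± 0.67, adjusted p = 0.0851, 0.0194 and 0.0252 with the 2 blocks). Fbln2, a fibulin of basement membranes, was 6.84 and 7.65 against 9.68, 10.01 and 9.27. Among all genes that passed with both blocks, a choice made after the values were seen, Efemp1, a fibulin, had 1 of the largest differences, with 10.67 and 10.33 against 3.95, 6.08 and 4.87 (5.53 ± 1.25, adjusted p = 0.0884, 0.0121 and 0.0406). Kera, keratocan, was 5.45 and 7.77 against 1.57, 1.94 and 0.81, and Gdf10, a ligand of the TGF-beta family, was 6.56 and 7.21 against 1.94, 3.84 and 1.48. The stem values of both lie below the array medians, and with low values raised to the median their differences of 5.17 and 4.46 became 1.72 and 2.0.

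Leukocyte markers also lay mostly higher. Of 22 leukocyte and macrophage markers, 14 lay above all stem arrays and 2, Csf1r and C1qa, below, with a median of 1.90, or 1.2 without the stem array of day 10 replicate 1. Ptprc (CD45) was 9.24 and 8.34 against 4.25, 6.42 and 5.18 and did not pass (3.51 ± 1.53, adjusted p = 0.287, and 0.0680 with the block). The T cell genes Cd3g and Cd3e were higher with the block, Cd3g with 7.45 and 6.45 against 2.78, 4.06 and 3.37 and Cd3e with 9.03 and 8.50 against 1.01, 6.55 and 5.66. The stem values of Cd3g, and the 1.01 of Cd3e, lie below the array medians. C1qa, a macrophage complement gene, was 3.71 and 3.40, both below the array medians, against 5.99, 5.51 and 5.51.

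Of 17 complement and innate defence genes, 9 lay above all stem arrays and 1, Tlr2, below (9 and 2 without the stem array of day 10 replicate 1), with a median of 1.53, or 0.96 without that array, and with the block S100a8, S100a9 and Cd55 were higher and 0 lower. S100a8 and S100a9, the subunits of calprotectin, which neutrophils carry and luminal cells can also express, were 13.35 and 12.20 against 7.86, 8.15 and 7.75 and 12.99 and 12.26 against 4.89, 8.62 and 7.85; both were higher with the block (adjusted p = 0.0358 and 0.0478). Cd55, a complement inhibitor, was 9.03 and 8.34 against 6.47, 6.67 and 6.63 (2.10 ± 0.44, adjusted p = 0.0744, and 0.0189 with the block). Lcn2, the antibacterial lipocalin, was 12.72 and 12.47 against 12.70, 12.97 and 13.17 and overlapped, and Tlr2, a receptor for bacterial lipoproteins, was at most 8.76 on luminal progenitor arrays against 9.14, 9.73 and 9.50 and did not pass. Outside this list, Fpr2, a formyl peptide receptor of myeloid cells, was named for its size after the values were seen. It was 9.55 and 8.09 against 3.62, 3.51 and 2.01 and passed with both blocks (5.77 ± 1.22, adjusted p = 0.0744, 0.0183 and 0.0406). Its stem values lie below the array medians, and with low values raised to the median its difference was 3.93, below the 5.22 of Efemp1.

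Cell cycle genes leaned upward without a call. Of 37, 16 lay above and 2 below all stem arrays, with a median of 0.33, and 0 passed with or without the block. Without the stem array of day 10 replicate 1, 23 lay above and 4 below (29.7% and 25.8% of all genes). Birc5, survivin, was 11.05 and 10.94 against 9.29, 9.69 and 9.57 (1.48 ± 0.54, adjusted p = 0.213), and Pcna was 11.57 and 12.16 against 11.18, 11.43 and 10.93. Ribosomal protein genes had a median of -0.01 over 13 genes and oxidative phosphorylation genes 0.23 over 23 (0.025 without that array).

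Whether the difference between the fractions was itself another in pregnancy than in 9-week virgins was tested as an interaction, between comparisons that share no array. In the plain fit 8 genes passed, 0.052% of all genes tested, all with a higher difference in pregnancy, and 0 had a lower one. They were Col13a1, Erg, Fabp4, Hhex, Mmrn2, Mndal, Pde8a and Srgn. Leaving out any 1 of the 9 arrays compared left 0 or 1 call. With the block 95 genes (0.618%) were higher and 2 (0.013%) lower, and with 3 levels 25 and 1. Leaving out 1 pregnancy array with the block left 8 to 116 calls, the 8 without the luminal progenitor array titled day 16. The interaction was above 0 for 55.1% of all genes.

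For all 8 genes the levels of the stages did not overlap in either fraction. Erg, a transcription factor of endothelium, was 1.97 and 0.52 on virgin luminal progenitor arrays and 6.82 and 7.07 on virgin stem arrays, against 4.59 and 5.81 on luminal progenitor arrays and 3.60, 4.0 and 2.16 on stem arrays in pregnancy. The order of the fractions turned, and the difference between the stages was 7.65 ± 1.21 (adjusted p = 0.0396). Many of these values lie below the array medians. With low values raised to the median, the difference between the stages was 2.60 for Erg and did not pass (adjusted p = 0.0523), and its difference in pregnancy was 0.485. Col13a1, a membrane collagen, had the largest change of the 8, from 1.75 and 3.73 against 9.44 and 8.69 in virgins to 6.38 and 7.42 against 4.83, 4.47 and 4.28 in pregnancy (8.70 ± 0.99, adjusted p = 0.00775). Its virgin luminal progenitor values lie below the array medians (4.74 and 4.93). Its stem values of pregnancy lie near or below theirs (4.79, 4.90 and 4.98), so the change is no exact fold. Fabp4, a fatty acid binding protein of adipocytes and capillary endothelium, was 9.57 and 9.84 against 13.13 and 12.80 in virgins and 12.41 and 12.71 against 11.31, 11.11 and 11.85 in pregnancy.

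The order of the fractions turned in the other 5 genes too. Mmrn2, an endothelial matrix glycoprotein, differed by -3.77 in virgins and by 0.96 in pregnancy, and Srgn, the granule proteoglycan of blood and endothelial cells, by -2.21 and 2.02. Hhex, a homeobox factor, differed by -2.70 and 2.57, Mndal, an interferon-inducible gene, by -1.99 and 3.10, and Pde8a, a phosphodiesterase, by -2.30 and 1.62. The stem values of Hhex in pregnancy, 3.75, 4.05 and 4.37, lie below the array medians. A second probe set of Pde8a gave -1.26 in pregnancy.

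**Figure D5:**
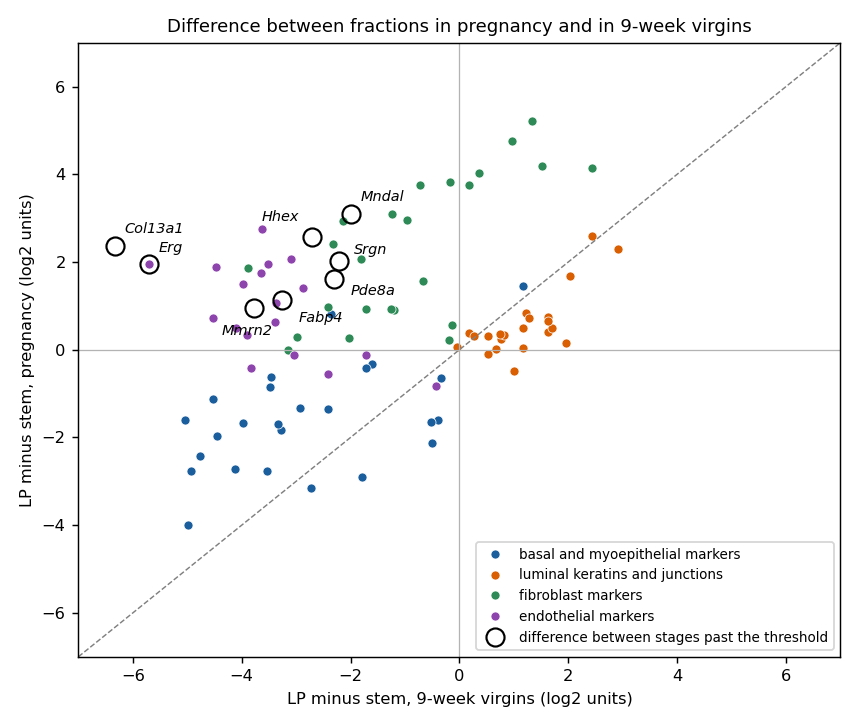
Luminal progenitor minus stem difference in pregnancy (vertical axis, log2 units) against the same in 9-week virgins (horizontal axis) for the genes of 4 marker lists, with the identity line dashed. The 8 ringed genes passed the test of the difference between stages and lie left of 0 and above 0.

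Markers of other cell types moved with these calls. The mean of the 18 endothelial markers was 9.58 and 9.27 on virgin stem arrays, 6.46 and 5.54 on virgin luminal progenitor arrays, 6.28, 6.63 and 6.88 on pregnant stem arrays and 7.09 and 7.94 on pregnant luminal progenitor arrays. Their median difference was -3.58 in virgins and 0.90 in pregnancy, with a median interaction of 4.51 against 0.11 over all genes. Erg is on this list, and with the block 10 of the 18 were higher in the interaction. Fibroblast markers had a median interaction of 3.48 and 24 of 24 above 0, with 0 passing with or without the block. The part of either cell type in the interaction was not tested.

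The epithelial lists had no call between the stages. The basal and myoepithelial markers had a median difference of -3.27 in virgins and -1.65 in pregnancy, the contractile genes -3.45 and -1.44, and the luminal keratins and junctions 1.18 and 0.38, so each median lay nearer 0 in pregnancy. In these 3 lists 0 genes passed the interaction with either block or without one. Krt5 differed by -4.12 in virgins and -2.73 in pregnancy, and Acta2 by -3.46 and -0.63. Kit (2.10 and 1.90) and Mal2 (2.44 and 2.60) had interactions of -0.19 and 0.17. Fgfr1 had a difference of 0.32 in virgins and -2.20 in pregnancy, an interaction of -2.52 that did not pass in the plain fit (adjusted p = 0.130) or with the block of 3 levels (0.112) and passed with the block of 2 levels (0.0392).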

How the data were processed

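The authors deposited 1 table of log2 expression values for 45101 probe sets on 23 arrays. That the deposited values are log2 was read from their range, 0 to 14.28, with array medians between 4.51 and 5.47. The software, background correction and scaling behind them are not given in the sources used here, and no detection calls were used, so differences from low values are no exact folds. The values were used as deposited. No array was a copy of another, since at least 98.5% of probe sets differed between any 2.

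Probe sets with 1 gene symbol (34945) were named through the platform annotation, those with several symbols (932) or none (9160) were not, and 64 control probe sets were left out. Each of 18193 genes was represented by its brightest probe set on average. Genes above the 40th percentile of the array on at least 2 arrays were kept (15378). Of 103 named genes with other probe sets above the filter, all probe sets had the same direction in 86.

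A linear model with 1 mean per stage and cell type, with days 10 and 16 pooled in each of the 2 fractions, was fitted to the 23 arrays (limma 3.58.1, R 4.3.3, eBayes with an intensity trend, 9 residual degrees of freedom). The spread comes from groups of several arrays and was applied to single arrays too. Tests were two-sided at a Benjamini-Hochberg adjusted p of 0.05, and values after ± are standard errors of the fit. The scripts were tested on simulated data. The number of arrays limits the precision.

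Whether replicate numbers pair the arrays was checked in the 7 groups that hold numbers 1 and 2. Deviations from the group means correlated at 0.303 to 0.682 in 21 of 21 pairs of groups. Among the 14 arrays of these groups alone, each was most like one of its own number. All 8 arrays without a number were nearer to replicate 2. Both luminal progenitor arrays of pregnancy and the stem array of day 16 carry no number.

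The members, the 41 gene lists (798 genes, 731 of them tested) and the tests were chosen with earlier results of these data known. Named genes are the 4 or fewer members with the smallest p in a list, a set of genes always named, and up to 5 genes a direction past the threshold in the interaction. A rule for genes past the threshold in the plain fit named none, and up to 12 genes a direction that passed with both blocks were added after the data were seen. Alternatives varied the arrays, the block, normalization, low values, filter, probe sets and variance model. Promoter sequences come from RefSeq (GRCm38.p6) and matched 554 of the list genes by symbol.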

Additional observations from a re-analysis of the deposited data

Results flagged for a closer look

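For 8 genes the difference between luminal progenitors and stem cells itself differed between pregnancy and 9-week virgins (limma interaction, Benjamini-Hochberg adjusted p = 0.00775 for Col13a1 and 0.0396 for the other 7). The difference of the 2 differences was 8.70 for Col13a1, 7.65 for Erg, 5.27 for Hhex, 5.08 for Mndal, 4.72 for Mmrn2, 4.40 for Fabp4, 4.23 for Srgn and 3.92 for Pde8a, and each gene was lower in luminal progenitors of virgins and higher in those of pregnancy. Leaving out any 1 of the 9 arrays compared left 0 or 1 call in all. With the replicate block of 2 levels all 8 passed, with adjusted p between 0.00281 and 0.0120. With 3 levels Fabp4 did not pass (adjusted p = 0.0650), and with low values raised Erg did not pass (adjusted p = 0.0523). Part of the values of Col13a1, Erg and Hhex lie below the array medians.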

How the results depend on the processing

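The count of genes that differed between the fractions in pregnancy was 0 in the plain fit, 0 with only the arrays compared, with days not pooled, with a filter at the array median, within the arrays titled replicate 2 or with no number, and 0 in every fit without 1 array (0 to 0). It was 118 with the replicate block of 3 levels, 779 with 2 levels, 21 after quantile normalization, 291 with low values raised, 18 without a filter, 34 with the mean of probe sets and 25 without an intensity trend; the cause was not tested. With the block of 2 levels kept, the count of 779 ran from 0 to 477 when 1 array was left out and from 651 to 1103 under 4 other settings. The interaction count of 8 was 4 with only the arrays compared, 1 with days not pooled, 26 and 97 with the replicate block of 3 and 2 levels, 42 with low values raised, 5 with the mean of probe sets, 3 without an intensity trend and 174 with 3-week and 9-week virgins averaged. It was 0 to 1 when 1 array was left out. With the block of 2 levels kept, the interaction count of 97 ran from 8 to 116 when 1 array was left out and was 188 with low values raised, 64 with days not pooled, 88 after quantile normalization and 98 with the mean of probe sets.

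Of 110 genes given here, 103 kept their direction under all 16 settings. The replicate block of 3 levels sets the luminal progenitor mean against the stem array of day 16 alone. In that setting the difference turned to -1.67 for Pgr, -0.015 for Krt8, -0.035 for Csn2 and -2.35 for Wap. It also turned to -0.025 for Csn1s1, -0.43 for Glycam1 and -0.26 for Dcn. With the block of 2 levels it turned to -0.0032 for Pgr and -0.47 for Csn2. Pgr was also -0.22 with days not pooled, -0.13 with the mean of probe sets, -1.12 within the arrays titled replicate 2 or with no number, and -1.12 to 1.53 when 1 array was left out. Leaving out 1 array gave -0.03 to 0.04 for Krt8 (-0.0033 without the luminal progenitor array titled day 10) and -1.04 to 4.76 for Wap.

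Precision is limited by 2 and 3 arrays a group, and by stem levels below the array median for part of the stromal and leukocyte genes.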
